A study of Mus musculus with 6 samples.

Results

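ATF4 is the transcription factor at the end of the integrated stress response, and the 36 genes described here are its known targets, the kinases and phosphatase upstream of it, and the amino acid genes that it controls. The genes were chosen by symbol from general knowledge of this pathway. Earlier results of these data were known at that time, so the list was not tested as a set. All 36 were found among the 55341 gene symbols of the count tables, and 35 had enough counts to be tested, the exception being *Fgf21*. The RNA came from cerebellar granule neurons (CGNs) in culture. Granule neuron progenitors were purified on a Percoll gradient from cerebella of CD1-IGS mice of both sexes at P6 to P8, and dividing non-neuronal cells were blocked with cytosine arabinoside. GSK-126, an inhibitor of the H3K27 methyltransferase EZH2, or its vehicle DMSO was added once at DIV3, and per the study's methods RNA was collected at DIV5. Each group held 3 libraries numbered 1 to 3, each from CGNs of pooled litters, and the dose given at DIV3 was not found in the sources used here. The labels name cerebellum and DIV3, where the methods describe cultures.

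In the integrated stress response, kinases such as PERK (*Eif2ak3*) and GCN2 (*Eif2ak4*) phosphorylate the translation factor eIF2α when the endoplasmic reticulum is stressed or amino acids run short. Bulk translation then falls, while the *Atf4* mRNA is translated more through upstream reading frames. ATF4 with its C/EBP partners turns on genes of amino acid synthesis, amino acid uptake and tRNA charging, and under lasting stress the factor CHOP (*Ddit3*) and its targets. Counts of RNA measure the transcripts of these genes and neither the phosphorylation of eIF2α nor the ATF4 protein. The comparison asked how these transcripts stood after the EZH2 inhibitor was given to neurons that had already left the cell cycle.

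The libraries held between 7407189 and 13092763 counts on genes. Listed markers of granule neurons had counts above 0 in every library (12 of 12 genes). So did those of astroglia (10 of 10), microglia and macrophages (9 of 9), oligodendrocyte lineage (9 of 9) and Purkinje cells and interneurons (10 of 10). The same held for 9 of 10 vascular and meningeal and 8 of 9 progenitor and dividing cell markers. The summed level of the granule neuron markers was 5297, 8757 and 6045 CPM (counts scaled to the size of each library) in DMSO replicates 1, 2 and 3, and 4070, 6651 and 4635 CPM in GSK-126 replicates 1, 2 and 3. Astroglial markers summed to 2871 to 8449 CPM with DMSO and 2732 to 8757 CPM with GSK-126, microglial markers to 413.7 to 806 and 547 to 1000 CPM, and vascular and meningeal markers to 5073 to 7089 and 6299 to 7771 CPM. Within every replicate number the granule neuron sum and the Purkinje and interneuron sum were lower with GSK-126. The microglial, vascular and meningeal, oligodendrocyte, and progenitor and dividing cell sums were higher, the last at 349.4 against 352.9 CPM in pair 2. The astroglial sum was higher in pair 1 and lower in pairs 2 and 3. Most of the vascular and meningeal sum came from *Col1a1* and *Col1a2*, with means of 2970 and 2242 CPM with DMSO and 3287 and 2604 CPM with GSK-126. In the fit without a block, 7 of the 9 tested genes of that list had positive log2 fold changes. The other 2, *Cdh5* (-0.18) and *Myh11* (-0.45), were negative. With the replicate number as a block (below), 7 of the 12 granule neuron markers were called lower and 2 higher. In that fit 5.09% of all genes were called lower and 3.35% higher. The markers called lower were *Neurod1*, *Zic1*, *Rbfox3*, *Etv1*, *Gabra6*, *Cbln1* and *Snap25*, with log2 fold changes from -0.31 (*Zic1*) to -1.19 (*Gabra6*). Those higher were *Tubb3* (0.40) and *Barhl1* (0.33). The paper reports that GSK-126 from DIV3 lowered late genes whose promoters lose H3K27me3 in culture. Of 10 Purkinje and interneuron markers, 3 (*Gad1*, *Gad2* and *Slc32a1*) were called lower and 0 higher. Of the other lists, 3 of 9 microglial, 2 of 9 tested vascular and meningeal, 1 of 9 oligodendrocyte, 1 of 10 astroglial and 0 of 7 tested progenitor markers were called higher, and 0 lower. The part of these cells in the results for the members was not tested. Progenitor markers ranged from 349 to 468 and from 353 to 525 CPM, and oligodendrocyte markers from 453 to 787 and from 525 to 799.8 CPM. Purkinje and interneuron markers ranged from 246 to 299.7 and from 209 to 254 CPM. Single markers with counts in every library could lie near the floor, such as *Car8* (0.134 CPM in GSK-126 replicate 3) and *Gli1* (0.115 CPM in DMSO replicate 1). The progenitor markers *Atoh1* and *Gli1* had too few counts to be tested. In such bulk RNA, fewer cells of a type and less RNA per cell cannot be told apart. The transcript of *Ezh2*, whose protein the drug inhibits, averaged 36.5 ± 6.97 CPM in the vehicle group and 33.6 ± 7.82 CPM in the treated group (SD over 3 libraries), which does not measure inhibition of the enzyme.

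ATF4 and C/EBP factors bind a composite site, the C/EBP-ATF response element, whose letters were searched as TGATGNAA on both strands of RefSeq promoter windows from 250 bases before to 50 bases after a gene's start (GRCm38.p6). Of the 31 members with a window, 9 held a match, or 29.0%, where 4.51% of all 27025 genes with a window did. The members were listed as ATF4 targets and related genes, so this difference does not bear on the drug. The 9 were *Aars*, *Asns*, *Atf3*, *Chac1*, *Fgf21*, *Gars*, *Nupr1*, *Pycr1* and *Trib3*. The stricter letters TGATGCAA, which lie within the first motif, were found in 6 members (19.4%), *Aars*, *Atf3*, *Chac1*, *Fgf21*, *Nupr1* and *Pycr1*, and in 1.03% of all genes. The members *Slc7a3*, *Nars*, *Cth*, *Slc7a5* and *Wars* had no window. Of the sequences, 5 are shown because they belong to classic ATF4 targets whose values are given below. Each is a stretch of 60 bases read along the gene, 5′ to 3′, with the matching letters in capitals.
Asns, chr6:7693199-7693258, minus strand: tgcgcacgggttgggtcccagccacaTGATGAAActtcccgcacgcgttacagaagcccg
Chac1, chr2:119351023-119351082, plus strand: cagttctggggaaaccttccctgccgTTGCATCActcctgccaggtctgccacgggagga
Atf3, chr1:191183410-191183469, minus strand: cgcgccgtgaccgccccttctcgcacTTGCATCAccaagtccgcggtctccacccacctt
Nupr1, chr7:126625547-126625606, minus strand: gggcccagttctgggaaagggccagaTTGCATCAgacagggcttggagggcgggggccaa
Trib3, chr2:152344013-152344072, minus strand: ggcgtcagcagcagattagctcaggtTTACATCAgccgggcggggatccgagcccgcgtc
The match began 23 bases before the gene's start in *Asns*, 193 in *Chac1* and 110 in both *Atf3* and *Nupr1*, while in *Trib3* it began 14 bases after it. In *Chac1*, *Atf3*, *Nupr1* and *Trib3* the motif reads on the opposite strand to the gene. Of the 9 members called higher below, 2 held a match, *Nupr1* and *Trib3*. These letters mark a match and not a bound site.

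With edgeR's quasi-likelihood test of GSK-126 against DMSO, 0 of the 35 members passed a Benjamini-Hochberg adjusted p under 0.05 in either direction, where 0% of all 16729 genes were called higher and 0% lower, and DESeq2's Wald test also called 0 members. At an unadjusted p under 0.05 the edgeR fit held 7 members higher and 0 lower, against 1.77% and 2.21% of all genes. Libraries with the same replicate number deviated together, so the same test was also fitted with the replicate number as a block. With this block 9 of the 35 members, or 25.7%, were called higher and 0 lower, where 3.35% of all genes were called higher and 5.09% lower. DESeq2 with the block called 5 members higher and 0 lower, against backgrounds of 2.21% and 3.69%. The 5 were *Atf4*, *Atf5*, *Ddit3*, *Cebpb* and *Stc2*, and the DESeq2 adjusted p values of the other 4 were 0.0646 for *Nupr1*, 0.0661 for *Trib3*, 0.107 for *Slc7a1* and 0.132 for *Mthfd2*. The median log2 fold change of the members with the block was 0.17, beside -0.0056 over all genes tested, and without it 0.18 beside -0.0071. With total counts in place of the scaling factors, the block fit called 11 members and 714 genes higher, and 0 members and 707 genes lower, where the scaled fit had 561 genes higher and 851 lower.

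The direction was shared more widely than the calls. In 22 of the 35 members (62.9%) the GSK-126 library was higher than the DMSO library of the same number in all 3 pairs, where 19.5% of all genes were so. Only *Slc6a9* was lower in all 3 pairs, where 22.8% of all genes were. All GSK-126 libraries lay above all DMSO libraries in 10 members (28.6%, against 4.72% of all genes) and below them in 0 (against 4.72%). For a single gene, an exact permutation test (two-sided) cannot give a p under 0.1 with 3 against 3 libraries, or under 0.25 where libraries are exchanged only within the 3 pairs, so the calls rest on the fit across all genes. The median of the members was 0.24 in pair 1, 0.18 in pair 2 and 0.11 in pair 3.

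**Figure D1:**
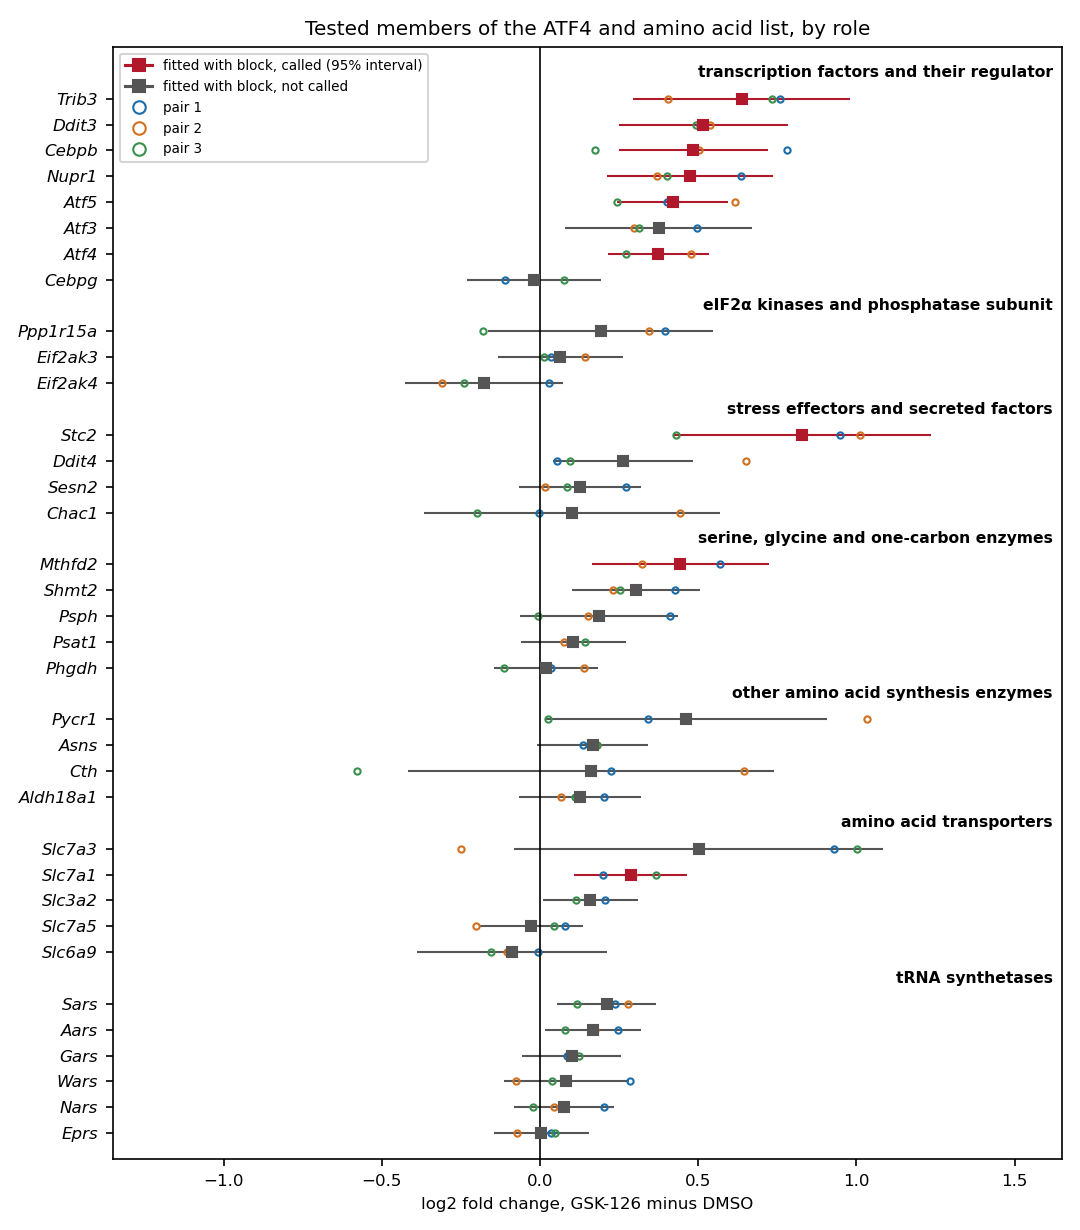
Log2 fold change of GSK-126 minus DMSO (x axis) for the 35 tested members (y axis), grouped by role. Squares are the edgeR fit with the replicate block and bars its 95% intervals, red where the adjusted p was under 0.05, and open circles are the 3 replicate pairs. The transcription factors at the top hold 6 of the 9 calls, and the 6 tRNA synthetases at the bottom hold 0, all with fitted values between 0.0040 and 0.21.

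The transcription factors and their regulator held most of the calls, with 6 of 8 genes called higher with the block and a median log2 fold change of 0.45. *Atf4* (ENSMUSG00000042406.8, GRCm38 chromosome 15, 80255184 to 80257541), the central factor, was at 116, 135 and 137 CPM in DMSO replicates 1, 2 and 3 and at 150.3, 188 and 166 CPM in GSK-126 replicates 1, 2 and 3. Every GSK-126 library was above every DMSO library. The mean was 129.5 ± 11.5 CPM with DMSO against 168 ± 19.0 CPM with GSK-126 (SD, n = 3). Its log2 fold change was 0.37 with the block (standard error 0.077, edgeR adjusted p = 0.00338) and 0.38 without it (standard error 0.13, edgeR adjusted p = 0.953). *Atf5* (ENSMUSG00000038539.15, chromosome 7, 44812256 to 44816658), a related factor induced by ATF4, had 116, 79.8 and 134 CPM with DMSO and 153, 123 and 159 CPM with GSK-126. The groups overlapped, but each GSK-126 library was above its partner, and the block fit gave 0.42 (standard error 0.084, edgeR adjusted p = 0.00276). *Atf4* and *Atf5* were the only members whose call was kept when any replicate number was left out of the block fit (largest adjusted p 0.0229 and 0.0248, both without replicate 2). Exons of *Atf5* overlap *Il4i1* and *Nup62* on the opposite strand over up to 8.2% of their length, as the overlaps with the 2 genes were added.

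*Ddit3* (ENSMUSG00000025408.15, chromosome 10, 127290774 to 127296288) encodes CHOP, which acts downstream of ATF4 in prolonged stress. It was at 19.1, 20.4 and 23.4 CPM with DMSO and at 27.3, 29.7 and 33.0 CPM with GSK-126, without overlap. The 3 pairs differed by 0.51, 0.54 and 0.49 on the log2 scale, and the block fit gave 0.52 (standard error 0.13, edgeR adjusted p = 0.0138), with 0.0605 without replicate 2. The symbol covers 2 GENCODE gene records, of which the longer is given here. Of its exon bases up to 4.7% overlap genes on the opposite strand, *Mars* among them. *Trib3* (ENSMUSG00000032715.9, chromosome 2, 152337422 to 152344032), a pseudokinase induced by ATF4 and CHOP that dampens ATF4, had 8.65, 13.1 and 12.7 CPM with DMSO and 14.8, 17.3 and 21.2 CPM with GSK-126, again with no overlap. Its block log2 fold change of 0.64 (standard error 0.16, edgeR adjusted p = 0.0177) lost its call without replicate 1 (adjusted p = 0.0739), without replicate 3 (0.0991) and with DESeq2 (0.0661).

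*Cebpb* (ENSMUSG00000056501.3, chromosome 2, 167688915 to 167690418), a C/EBP factor that can pair with ATF4, was at 38.6, 35.99 and 55.9 CPM with DMSO and at 66.5, 51.0 and 63.0 CPM with GSK-126. DMSO replicate 3 was above GSK-126 replicate 2, so the groups overlapped, and the pairs differed by 0.78, 0.50 and 0.17. The block value of 0.48 (standard error 0.11, edgeR adjusted p = 0.00921) was not called without replicate 1 (0.147) or replicate 2 (0.0583), and 20.7% of its exons overlap *Tmem189* on the opposite strand. *Nupr1* (ENSMUSG00000030717.9, chromosome 7, 126623249 to 126630861), a small stress-induced chromatin protein, had 25.6, 21.4 and 23.6 CPM with DMSO and 39.9, 27.8 and 31.3 CPM with GSK-126. Its groups did not overlap, and the block gave 0.47 (standard error 0.13, edgeR adjusted p = 0.0210), with 0.1802 without replicate 1 and 0.0646 with DESeq2. *Nupr1* is also expressed outside neurons. The microglial sum above was higher in the same libraries, and so was the vascular and meningeal sum, which came mostly from collagen genes. Whether these cells had a part in its level or in that of *Cebpb* was not tested.

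The other factors were not called. *Atf3*, a factor induced by many stresses, ranged from 11.0 to 26.5 CPM with DMSO and from 13.6 to 33.0 CPM with GSK-126, and replicate 2 was the lowest of both groups. It was higher in all 3 pairs, with a block log2 fold change of 0.38 (edgeR adjusted p = 0.118). *Cebpg*, the C/EBP partner of ATF4, had 46.6 to 52.3 CPM with DMSO and 48.0 to 49.2 CPM with GSK-126, a block log2 fold change of -0.019 with a 95% interval from -0.23 to 0.19, whose sign differed between scalings (0.015 with total counts).

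**Figure D2:**
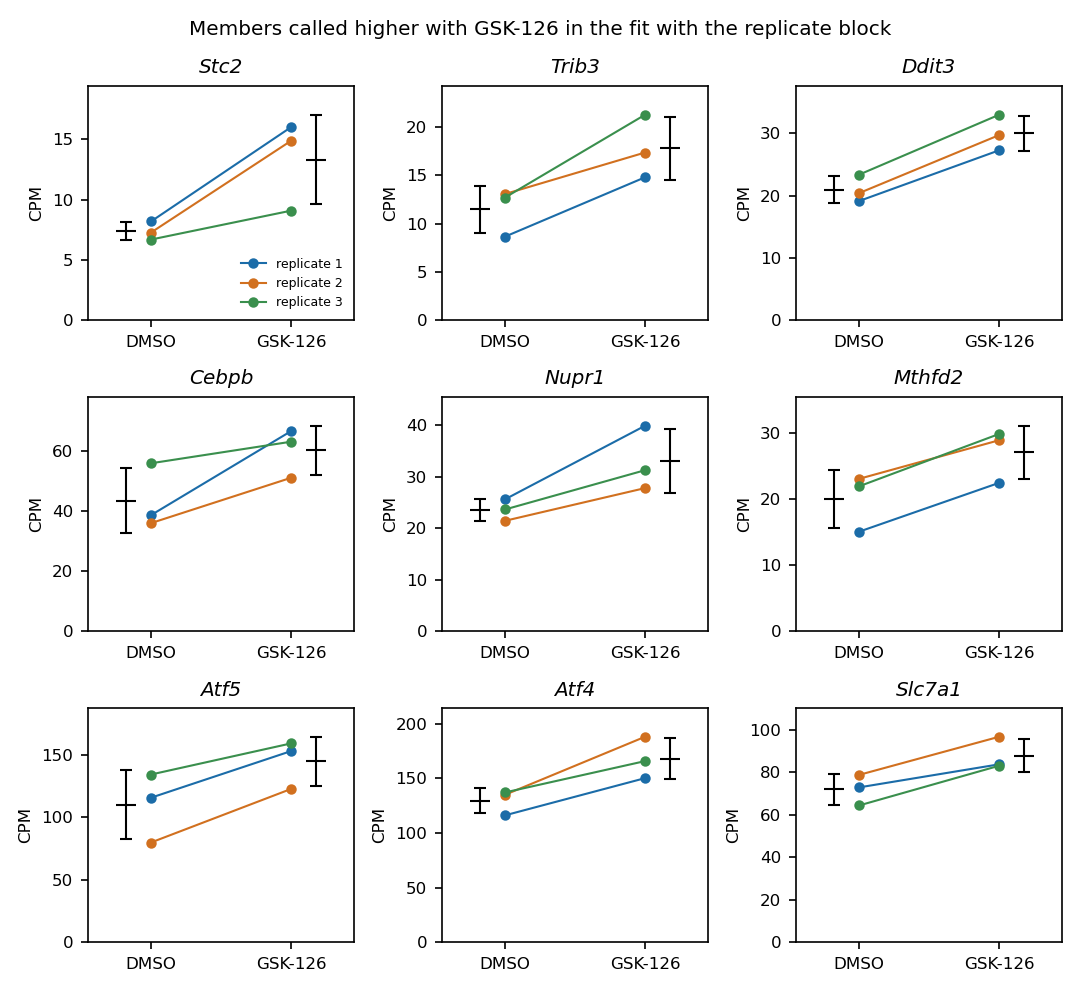
Expression in CPM (y axis, from 0) of the 9 members called higher with the replicate block, in DMSO and GSK-126 libraries (x axis). Points are libraries, lines join libraries of the same replicate number, and black bars give the mean and SD of each group (n = 3). All 27 lines slope upwards, and for *Atf5*, *Cebpb* and *Mthfd2* the groups overlap while the pairs do not cross in direction.

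Upstream of ATF4, 0 of 3 genes were called with the block. *Eif2ak3*, the kinase that senses misfolded proteins in the endoplasmic reticulum, was at 58.1, 53.4 and 54.5 CPM with DMSO and at 59.6, 59.0 and 55.0 CPM with GSK-126. *Eif2ak4*, the kinase that senses uncharged tRNA, was at 29.9, 42.5 and 33.0 CPM with DMSO and at 30.5, 34.2 and 27.9 CPM with GSK-126. The 95% intervals of their block log2 fold changes ran from -0.13 to 0.26 and from -0.43 to 0.074, and the adjusted p values from edgeR were 0.755 and 0.428. *Ppp1r15a*, the stress-induced phosphatase subunit GADD34 that reverses eIF2α phosphorylation, ranged from 12.1 to 15.5 CPM and from 13.6 to 16.2 CPM. It was higher in pairs 1 and 2 and lower in pair 3. *Eif2ak3* shares 8.0% of its exon bases with a gene on the opposite strand. The kinases act through phosphorylation, so their transcripts do not report their activity.

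Among stress effectors and secreted factors, 1 of 4 tested genes was called. *Stc2* (ENSMUSG00000020303.2, chromosome 11, 31357307 to 31370074), which encodes the secreted glycoprotein stanniocalcin 2, had the largest fitted fold change of the 35 tested members. It was at 8.19, 7.27 and 6.69 CPM with DMSO and at 16.0, 14.9 and 9.08 CPM with GSK-126. The groups did not overlap, although GSK-126 replicate 3 stood well below the other two. The block log2 fold change was 0.83 (standard error 0.20, edgeR adjusted p = 0.00995), with 0.0588 without replicate 1 and 0.0903 without replicate 2. *Ddit4*, an inhibitor of mTORC1, did not overlap between groups (52.5 to 80.0 and 81.5 to 85.4 CPM). Most of its difference came from pair 2, at 0.65 against 0.053 and 0.094 in the others, and the call was missed (edgeR adjusted p = 0.147). Without replicate 1 *Ddit4* was called (adjusted p = 0.0472), and without replicate 2 its log2 fold change was 0.076.

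*Chac1*, which degrades glutathione and is among the most inducible CHOP and ATF4 targets, had 6.46, 8.11 and 6.78 CPM with DMSO and 6.44, 11.1 and 5.88 CPM with GSK-126. The pairs disagreed, with a difference of 0.44 in pair 2, -0.20 in pair 3 and -0.0037 in pair 1. The interval of the block fit, from -0.37 to 0.57, was wide at counts between 44 and 103 per library. *Sesn2*, a leucine sensor of the mTORC1 pathway, ranged from 53.1 to 76.0 and from 53.7 to 80.5 CPM. *Fgf21*, a secreted metabolic hormone, had 0, 5 and 2 counts with DMSO and 4, 5 and 2 counts with GSK-126 and was not tested.

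Serine and glycine synthesis begins with *Phgdh*, *Psat1* and *Psph*, and *Shmt2* and *Mthfd2* carry the carbon into the mitochondrial folate cycle. The folate cycle genes were at the top of this group. *Mthfd2* (ENSMUSG00000005667.8, chromosome 6, 83305691 to 83325908) was at 15.1, 23.1 and 22.0 CPM with DMSO and at 22.5, 29.0 and 29.9 CPM with GSK-126, so that only GSK-126 replicate 1 fell within the DMSO range. Its block log2 fold change was 0.44 (standard error 0.13, edgeR adjusted p = 0.0444), and it was called in none of the fits without a replicate number (0.187, 0.0761 and 0.121 without 1, 2 and 3) or with DESeq2 (0.132). *Shmt2* did not overlap between groups (44.5, 54.8 and 48.6 against 59.9, 64.4 and 58.0 CPM), and with 0.30 (standard error 0.097) it just missed the threshold (edgeR adjusted p = 0.0585). *Psph* and *Psat1* had block values of 0.19 and 0.11 (edgeR adjusted p = 0.391 and 0.486).

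*Phgdh*, which makes the entry step, followed the replicate number far more than the drug. It was at 199.9, 84.7 and 127 CPM in DMSO replicates 1, 2 and 3 and at 205, 93.3 and 117 CPM in GSK-126 replicates 1, 2 and 3. DMSO libraries differed from one another by up to 2.36 times, while the block log2 fold change was 0.019 with an interval from -0.15 to 0.18. *Phgdh* is known for its high level in astroglia, and the astroglial marker sum had the same order over the replicates, at 8449, 2871 and 4775 CPM with DMSO and 8757, 2732 and 4715 CPM with GSK-126. The microglial and oligodendrocyte sums were also highest in replicate 1 and lowest in replicate 2 of both groups. The part of any of these cells in the level of *Phgdh* was not tested.

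**Figure D3:**
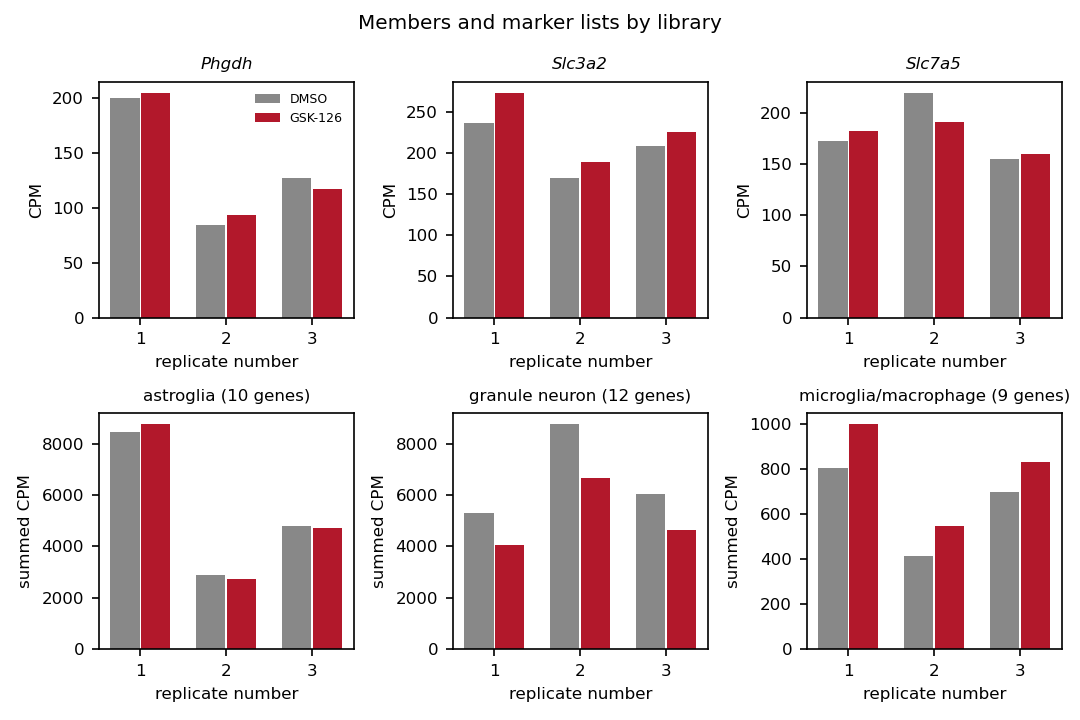
CPM of *Phgdh*, *Slc3a2* and *Slc7a5* and summed CPM of 3 marker lists (y axes, from 0) by replicate number (x axes), with DMSO in grey and GSK-126 in red. *Phgdh*, *Slc3a2* and the astroglial sum are lowest in replicate 2 of both groups, *Slc7a5* and the granule neuron sum are highest there, and the granule neuron sum is lower with GSK-126 for every number.

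Of the other synthesis enzymes 0 of 4 were called. *Asns*, asparagine synthetase and the classic target of the amino acid response, was at 69.6, 88.2 and 71.5 CPM with DMSO and at 76.4, 100.1 and 81.1 CPM with GSK-126. It was higher in all 3 pairs, by 0.14, 0.18 and 0.18, but the groups overlapped and the block value of 0.17 (standard error 0.084, 95% interval -0.0092 to 0.34) was not called (edgeR adjusted p = 0.262). The proline genes *Aldh18a1* and *Pycr1* had block values of 0.13 and 0.46 (edgeR adjusted p = 0.467 and 0.207), the latter at 6.06 to 12.6 CPM and with 1.03 in pair 2 against 0.024 in pair 3. *Cth*, of the transsulfuration path to cysteine, had 20 to 93 counts per library and pairs that disagreed in sign.

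Of the 5 amino acid transporters, 1 was called. *Slc7a1* (ENSMUSG00000041313.14, chromosome 5, 148327410 to 148399904), the cationic transporter CAT1 for arginine and lysine, was at 72.9, 78.8 and 64.4 CPM with DMSO and at 83.8, 96.7 and 83.1 CPM with GSK-126, with no overlap. Its block log2 fold change was 0.29 (standard error 0.086, edgeR adjusted p = 0.0417), and it was not called in any fit that left out a replicate number (0.0824, 0.113 and 0.200 without 1, 2 and 3) or with DESeq2 (0.107). *Slc3a2* and *Slc7a5* form the heavy and light chains of the LAT1 exchanger for large neutral amino acids, and they differed across replicates in opposite ways. *Slc3a2* was lowest in replicate 2 (169 and 189 CPM, against 208 to 273 in the other libraries), where *Slc7a5* was highest (219 and 191 CPM, against 155 to 182).

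With the block *Slc3a2* moved by 0.16 (edgeR adjusted p = 0.200) and *Slc7a5* by -0.027 (edgeR adjusted p = 0.884), and the sign of *Slc7a5* turned with total counts (0.0075). *Slc7a3*, a second cationic transporter, ranged from 2.65 to 10.2 CPM within DMSO alone and was higher with GSK-126 in pairs 1 and 3 but not in pair 2. *Slc6a9*, the glycine transporter GLYT1, had 18.1 to 19.8 CPM with DMSO and 16.8 to 19.4 CPM with GSK-126. Up to 38.6% of its exon bases overlap genes on the opposite strand.

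The tRNA synthetases charge tRNAs with their amino acids, and 0 of the 6 were called. All had positive fitted values, with a median of 0.092 and a range from 0.0040 for *Eprs* to 0.21 for *Sars*. *Sars*, for serine, was at 155, 147 and 156 CPM with DMSO and at 183, 179 and 169 CPM with GSK-126, and *Aars*, for alanine, at 218, 227 and 231 against 259, 256 and 244 CPM. Neither overlapped between groups, and their block values were 0.21 and 0.17 (edgeR adjusted p = 0.0940 and 0.175). *Aars* shares up to 15.1% of its exon bases with other genes. *Eprs*, for glutamate and proline, lay at 205 to 229 CPM with DMSO and at 209.6 to 224 CPM with GSK-126, with an interval from -0.15 to 0.15. *Gars*, *Nars* and *Wars* had block values between 0.075 and 0.10 (edgeR adjusted p between 0.479 and 0.669).

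Genes of the wider pathway are given by their counts in the same block fit, where 3.35% of all genes were called higher and 5.09% lower. Their lists were written from general knowledge, also with earlier results of these data known. Of 16 tested genes of the other stress response machinery, such as the other eIF2α kinases and the subunits of eIF2 and eIF2B, 0 were called with the block in either direction, with a median of 0.024 and 1 gene, *Impact*, at an unadjusted p under 0.05. Of 17 other tRNA synthetases and their scaffold genes 0 were called, with a median of 0.044 and 3 at an unadjusted p under 0.05, all higher. DESeq2 with the block also called 0 genes in both lists. Of 29 other ATF4 targets and amino acid genes, 4 were called higher and 1 lower, with a median of 0.17. At an unadjusted p under 0.05 in the block fit, 8 were higher and 3 lower. Without the block 19 of the 29 had positive log2 fold changes and 10 negative. Those higher were *Slc1a5*, a glutamine transporter (0.46), *Shmt1*, the cytosolic partner of *Shmt2* (0.68), *Ndrg1*, a stress-responsive gene (0.59), and *Ass1*, of arginine synthesis (0.76). DESeq2 with the block called 3 of these 4, and *Shmt1* was lost (adjusted p = 0.118). The gene called lower was *Vldlr*, a lipoprotein receptor (-0.34). Of 14 chaperones and other genes of the endoplasmic reticulum, 2 were called higher, *Pdia6* (0.32) and *Sdf2l1* (0.67), with a median of 0.12, while *Hspa5*, the chaperone BiP, was at 0.18 (edgeR adjusted p = 0.126).

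In order of level per kilobase of exon with DMSO, *Slc3a2* (58.0 RPKM, that is CPM per kilobase), *Phgdh* (55.1), *Atf5* (55.1) and *Atf4* (54.9) headed the 35 tested members. These 4 levels lay closer together than the DMSO libraries of *Phgdh* alone, so their order does not stand out from the spread. *Slc7a3* (1.42), *Stc2* (1.43), *Cth* (1.77) and *Pycr1* (2.17 RPKM) closed it. The members called higher were spread over the whole order, from *Atf5* at 55.1 to *Stc2* at 1.43 RPKM.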

How the data were processed

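The authors trimmed paired reads of poly-A enriched RNA (Trimmomatic 0.38), aligned them to GRCm38.p4 (STAR 2.7.2b) and counted reads on exons with HTSeq. Versions are from the submitters' processing notes. They deposited raw counts per gene symbol, without normalization, one table per library. The strand setting was not given in the sources used here, so how reads in stretches shared with antisense genes were assigned is not known. Reads set apart as ambiguous between genes made up 0.883% to 1.095% of the reads listed. Overlap shares of exons add the bases shared with each overlapping gene, so a base shared with several genes was counted for each. Lines naming no gene held 58.7% to 60.7% of the reads listed and were left out. All 55341 symbols are in GENCODE M21, which gave identifiers, coordinates and exon lengths.

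Counts were tested in R 4.3.3 with edgeR 4.0.16 (TMM factors, filterByExpr, quasi-likelihood test, Benjamini-Hochberg adjustment over 16729 genes, calls at an adjusted p under 0.05), without and with the replicate number as a block. DESeq2 1.42.0 was an alternative. All adjusted p values named as edgeR's come from these fits. CPM are scaled by TMM. Pair differences use log2 CPM with a prior count of 2. The labels number the replicates and do not say what a number shares. Deviations from group means correlated at 0.56, 0.63 and 0.49 between libraries of the same number and at 0.0064 or less between others, so the numbers were taken as pairs. The biological coefficient of variation was 24.0% without and 9.74% with the block. No library was a copy of another (chi-square per degree of freedom at least 9.01).

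The members, lists and rule for naming genes were chosen with earlier results of these data known, so no list was tested as a set. All members could be named. Values per library are given for members called in either fit and for a set listed by name (*Atf4*, *Ddit3*, *Asns*, *Trib3*, *Chac1*, *Eif2ak3*, *Eif2ak4*), and of other lists the called genes. Other members with values per library were added after their values were seen. The fits were tested on simulated data. Alternatives were the block, each library or replicate number left out, DESeq2 and its size factors, upper-quartile factors, scaling to total counts alone, all genes kept or only those reaching 10 counts in each of the 6 libraries, and a threshold of 0.01.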

Additional observations from a re-analysis of the deposited data

How the results depend on the processing

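Without the block, 0 members were called under each alternative run. Over all genes, 20 were called higher and 1 lower with DESeq2, and 9 and 1 without a low-count filter. With the replicate block, 561 genes were higher and 851 lower, 369 and 618 with DESeq2, 582 and 837 with its size factors, 714 and 707 with total counts, and 242 and 474 at an adjusted p under 0.01, the last chosen after seeing the data. These block fits called 9, 5, 9, 11 and 4 members higher and 0 lower. Leaving out a library without the block called 0 genes, and leaving out a replicate number with the block left 417, 337 and 558 genes higher and 671, 496 and 719 lower without replicates 1, 2 and 3, with 4 to 6 members higher. The member median kept its sign throughout, between 0.15 and 0.25 over all leave-outs, both ends from block fits (0.15 without replicate 1, 0.25 without replicate 3). Some block fits also called members outside the 9, such as *Ddit4* without replicate 1 (edgeR adjusted p = 0.0472). Of 35 members, 8 changed sign under at least 1 alternative, none of them called. *Cebpg* turned to 0.015 with upper-quartile factors, 0.014 with total counts and 0.015 with total counts and the block, and *Slc7a5* to 0.0012 with total counts and 0.0075 with both. With a library left out and no block, the ranges were -0.055 to 0.043 for *Cebpg*, -0.14 to 0.12 for *Slc7a5*, -0.37 to 0.41 for *Phgdh*, -0.19 to 0.29 for *Chac1*, -0.0013 to 0.29 for *Sesn2* and -0.020 to 0.047 for *Eprs*. With the block and a replicate number left out, they were -0.064 to 0.044 for *Cebpg*, -0.066 to 0.065 for *Slc7a5*, -0.033 to 0.086 for *Phgdh*, -0.098 to 0.24 for *Chac1*, -0.017 to 0.045 for *Eprs*, -0.0033 to 0.17 for *Wars* and -0.11 to 0.45 for *Cth*. The cause of these changes was not tested. The 4 members with the widest intervals, *Slc7a3*, *Cth*, *Chac1* and *Pycr1*, had 20 to 136 counts per library, and their pair differences had SDs of 0.70, 0.62, 0.33 and 0.52.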

Other observations

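Across the 35 tested members, the main principal component of log2 CPM held 38.0% of the variance and separated replicate 2 of both groups (-1.71 with DMSO and -1.18 with GSK-126) from the other libraries (0.47 to 0.87). The drug groups overlapped on it. The largest spread within DMSO was that of *Slc7a3*, whose highest library was 3.83 times its lowest, followed by *Atf3* (2.41 times), *Phgdh* (2.36) and *Pycr1* (1.95), while *Sars* and *Aars* differed by 1.05 and 1.06 times.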
